A study of Rattus norvegicus with 12 samples.

Results

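RNA abundance of 53 genes of the transforming growth factor beta (TGF-beta) and bone morphogenetic protein (BMP) pathways was followed in rat PAC1 cells, a line of pulmonary artery smooth muscle cells, after siRNA depletion of RBPMS, RBFOX2 or QKI. The genes were taken by symbol from a list of ligands, latency and matrix proteins, receptors, antagonists, Smads and Id genes. All 53 were among the 33294 genes of the deposited count table, and all 53 passed the filter on low counts that left 18438 genes for testing. Nog and Gdf10 each passed it through the libraries of 1 group, where they were highest, as given below. The study addressed how these RNA-binding proteins, which regulate alternative splicing, shape the transcriptome of differentiated PAC1 cells. RBPMS is enriched in smooth muscle, whereas RBFOX2 and QKI (gene symbol Qk) are more widely expressed. There were 4 groups of 3 libraries, 12 in all, made from poly(A)-selected RNA. Every group was the same cell line and received 90 pmol of siRNA by reverse transfection. The control group received the scrambled siRNA C2, and in each other group 1 siRNA targeted RBPMS, RBFOX2 or QKI. Per the labels the transfection was repeated after 24 h and the cells were taken 48 h after the second treatment, whereas the study describes longer intervals, and this difference was not resolved. As a model the data represent 1 cell line and 1 siRNA sequence per target, and the labels do not say whether replicates were separate cultures. The study's methods describe its replicates in general as independent biological ones. The p-values measure the spread between these libraries, which may still be technical where cultures were not separate.

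TGF-beta, activin and BMP ligands are secreted dimers that bring type I and type II receptor kinases together, and the activated type I receptor phosphorylates receptor Smads, which enter the nucleus with Smad4. TGF-beta is stored in the matrix in a latent complex bound by some of the Ltbp proteins, while secreted antagonists such as noggin, gremlin and follistatin hold BMP or activin ligands away from their receptors. In vascular smooth muscle these pathways are known for control of contractile gene expression and matrix synthesis, and Id genes are classical targets of the BMP branch.

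The 4 groups were defined by the siRNA sense strands shown here 5′ to 3′, since every comparison below rests on these reagents.
C2: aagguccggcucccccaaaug
RBPMS: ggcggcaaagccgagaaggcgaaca
RBFOX2: gcaaugguucagccuuuua
QKI: ggacuuacagcuaaacaac

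Promoter sequence was read from RefSeq for the assembly GRCr8 to show what lies upstream of the genes of the latency and matrix group that passed the test with a change of more than 1 on the log2 scale. Of the 53 genes, 43 had a promoter entry, and the 250 bases before the gene's start were searched on both strands for CAGAC, a core of the Smad binding element, for GGCGCC, a GC-rich Smad motif, and for the palindrome GTCTAGAC. Each line gives the gene's strand, 5′ to 3′, with CAGAC (or GTCTG, its reverse complement) and GGCGCC in capitals.
Ltbp1, chr6:26177302-26177551, minus strand: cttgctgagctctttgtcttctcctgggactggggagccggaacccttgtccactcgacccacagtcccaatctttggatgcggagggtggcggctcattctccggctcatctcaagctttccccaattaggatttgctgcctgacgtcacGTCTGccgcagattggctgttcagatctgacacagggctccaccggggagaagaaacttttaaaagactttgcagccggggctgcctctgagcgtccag
Ltbp2, chr6:110257299-110257548, minus strand: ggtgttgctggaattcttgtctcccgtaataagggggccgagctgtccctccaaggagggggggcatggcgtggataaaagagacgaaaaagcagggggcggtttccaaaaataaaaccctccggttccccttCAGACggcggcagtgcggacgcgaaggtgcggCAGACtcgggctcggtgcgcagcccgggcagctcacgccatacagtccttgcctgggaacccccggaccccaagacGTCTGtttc
Ltbp4, chr1:91759808-91760057, minus strand: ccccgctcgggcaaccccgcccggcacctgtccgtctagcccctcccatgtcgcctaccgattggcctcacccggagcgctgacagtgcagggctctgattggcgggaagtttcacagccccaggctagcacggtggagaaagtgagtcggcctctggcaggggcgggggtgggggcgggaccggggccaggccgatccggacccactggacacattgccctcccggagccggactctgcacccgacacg
Tgfbi, chr17:7990114-7990363, minus strand: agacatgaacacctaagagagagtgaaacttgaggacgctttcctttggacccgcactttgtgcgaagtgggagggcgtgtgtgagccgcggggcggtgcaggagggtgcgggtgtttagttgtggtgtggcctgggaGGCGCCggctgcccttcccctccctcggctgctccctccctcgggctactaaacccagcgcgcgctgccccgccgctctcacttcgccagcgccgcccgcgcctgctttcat
The Ltbp1 window held CAGAC at 1 place and the Ltbp2 window at 3 places, the Tgfbi window held GGCGCC at 1 place, and the Ltbp4 window held none of the motifs. CAGAC was found in 20.9% of the 43 pathway promoters (9) against 42.8% of all 27457 promoters of this length. GGCGCC was found in 32.6% of the pathway promoters (14) against 9.24% of all promoters. The pathway promoters were richer in G and C, with a median of 68.0% against 52.0%, so GC content moved with both shares, and its part in them was not tested. GTCTAGAC occurred in 0 of the 43 and in 0.186% of all promoters. These matches describe letters in a window and were not measured as binding sites.

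Library totals ranged from 111 to 152 M counts. Levels are given as CPM, a gene's counts per M counts of the library total adjusted by the trimmed mean of M-values. Each siRNA lowered its target: Rbpms fell from 40.7 ± 2.60 to 7.21 ± 0.301 CPM (SD, n = 3), Rbfox2 from 154 ± 4.37 to 37.3 ± 0.943 CPM and Qk from 233 ± 7.04 to 26.6 ± 0.649 CPM. The 9 smooth muscle markers, among them Acta2, Tagln and Myh11, were all detected, and their summed level lay between 2150 and 2210 CPM in control, 1080 and 1190 in RBPMS KD, 844 and 944 in RBFOX2 KD and 1430 and 1520 in QKI KD. By edgeR at an adjusted p under 0.05, 2 of the 9 were higher in each knockdown. Lower at that level were 7 in RBPMS KD, 6 in RBFOX2 KD and 6 in QKI KD. Of all genes 30.4%, 30.1% and 32.9% were higher at that level in RBPMS, RBFOX2 and QKI KD, and 29%, 30.1% and 34% lower. The 7 endothelial markers summed to between 8.75 and 10.8 CPM in control and at most 9.18 CPM in the knockdowns. The 5 fibroblast markers summed to between 48.4 and 88.4 CPM in control and to between 25.9 and 52.6 CPM in the knockdowns. By the same rule 0, 2 and 1 of the fibroblast markers were higher in RBPMS, RBFOX2 and QKI KD, and 3, 2 and 4 were lower. The 4 immune markers summed to at most 1.56 CPM in control and to between 5.40 and 5.93 CPM in QKI KD, with Ptprc, the pan-leukocyte marker, at or below 0.0296 CPM in every library. Of these immune markers 2 were tested, and both were higher in QKI KD by edgeR at an adjusted p under 0.05. Of the tested ones, 1 rose by more than 1 on the log2 scale, at 3.17. The 4 epithelial markers summed to at most 0.698 CPM in control and to between 5.58 and 7.33 CPM in QKI KD, where Cldn4 made up most of the sum at 5.63 CPM and Krt19 was at 0. All 3 epithelial markers tested rose in QKI KD by more than 1 on the log2 scale at an adjusted p under 0.05. Their median was 2.62, and 8.28% of all genes tested rose by that rule. Marker levels thus differed between the groups compared below, and their part in the results on the pathway genes was not tested. In bulk libraries fewer cells of a type and less RNA per cell cannot be told apart.

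Among the 53 genes, 7 passed an adjusted p under 0.05 with an absolute log2 fold change above 1 in RBPMS KD (13.2%, 3 higher and 4 lower), against 9.66% of all genes tested, 5.16% higher and 4.5% lower. In RBFOX2 KD 6 passed (11.3%, 3 higher and 3 lower), against 11.7% of all genes, 6.96% higher and 4.73% lower. With library totals alone as the scale this split became 4 higher and 2 lower. In QKI KD 18 passed (34.0%, 9 higher and 9 lower), against 17.5% of all genes, 8.28% higher and 9.24% lower. The first 2 shares lay near the background and are no result about the pathway as a whole. At an adjusted p under 0.05 without a fold limit, 38 genes passed in RBPMS KD (12 higher, 26 lower), 40 in RBFOX2 KD (17 higher, 23 lower) and 44 in QKI KD (17 higher, 27 lower), where 59.4%, 60.3% and 66.9% of all genes passed. Of all genes 30.4% were higher and 29% lower in RBPMS KD by that rule, 30.1% and 30.1% in RBFOX2 KD, and 32.9% and 34% in QKI KD. The median log2 fold change of the 53 genes was -0.20 in RBPMS KD, -0.06 in RBFOX2 KD and -0.12 in QKI KD, beside 0.0085, 0.015 and 0.0070 over all genes. For RBFOX2 KD the sign of that median was not stable, since it was 0.0044 on the normalised table. For QKI KD it shrank to -0.033 with library totals alone and -0.0030 on the normalised table. The 3 comparisons share the control libraries, so the values of each are given side by side and their likeness was not counted. In at least 1 knockdown 21 of the 53 genes passed the fold limit (26.7% of all genes did), of which 15 had a mean of at least 1 CPM and 6 lay below it. The map of log2 fold changes by role shows where these genes sit in the pathway.

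**Figure D1:**
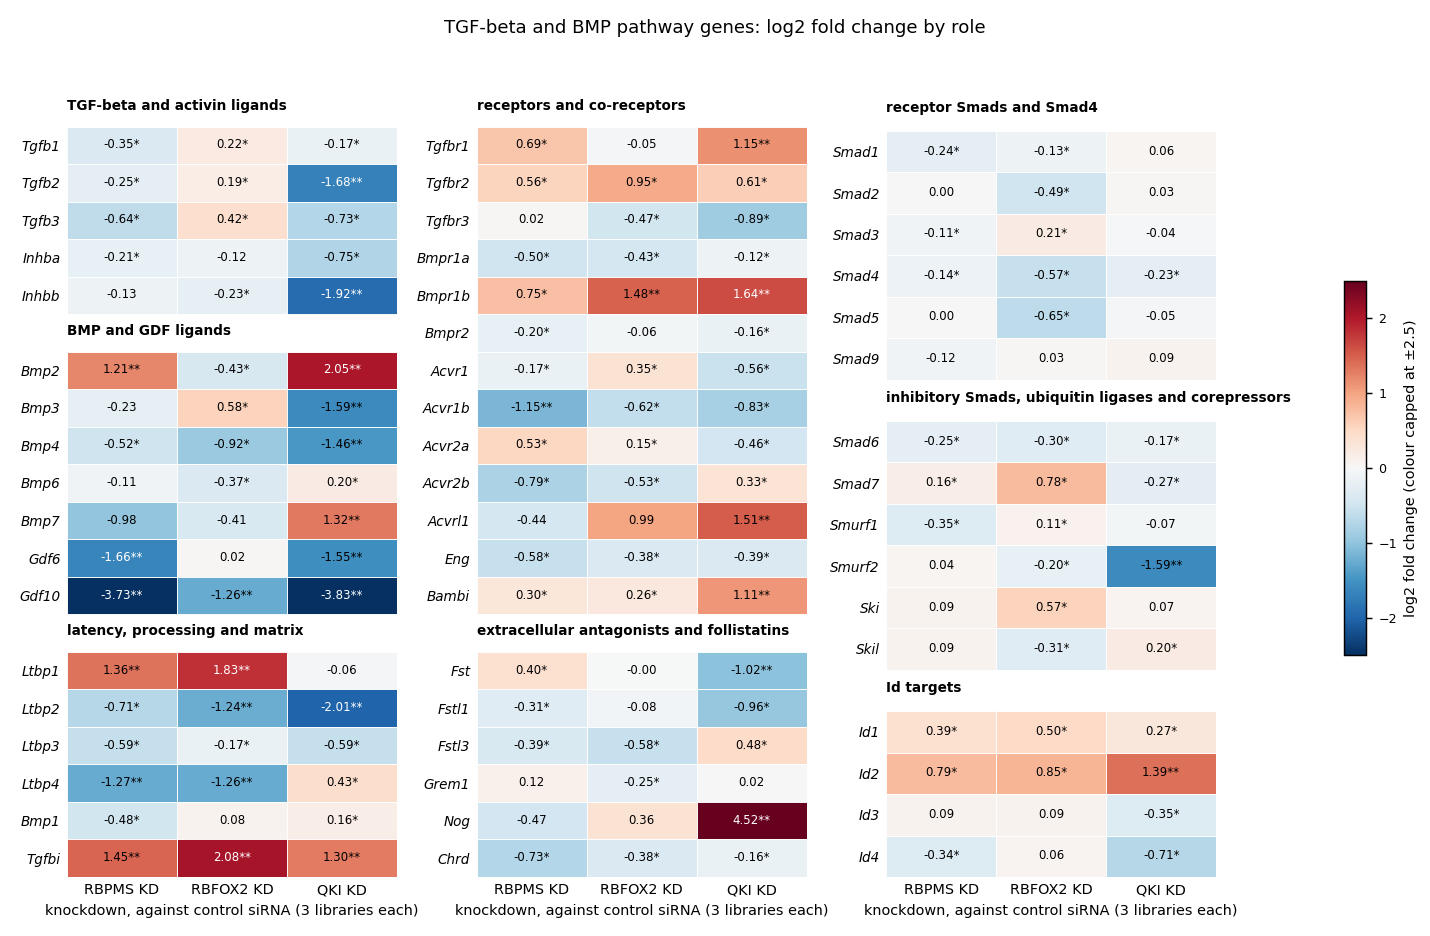
Log2 fold change against control siRNA of the 53 TGF-beta and BMP pathway genes, grouped by role, in RBPMS, RBFOX2 and QKI knockdown (KD, columns, 3 libraries each against 3). Colour gives the log2 fold change, capped at 2.5 in either direction; 1 star marks an adjusted p under 0.05 and 2 stars also an absolute log2 fold change above 1. Pairs of stars stand at 18 genes in the QKI column, 7 in the RBPMS column and 6 in the RBFOX2 column; the printed values of Gdf10, at 4 counts in all in RBPMS KD and in QKI KD, depend on the fit.

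The TGF-beta and activin ligands fell together in QKI KD, where 5 of 5 were lower at an adjusted p under 0.05 and the median log2 fold change was -0.75. At that level 34% of all genes were lower in QKI KD. In RBPMS KD, where 29% of all genes were lower, 4 of the 5 ligands were lower (median -0.25). In RBFOX2 KD, where 30.1% of all genes went each way, 3 of the ligands were higher and 1 was lower (median 0.19). The fold limit was passed by 2 of them in QKI KD and by 0 in the other knockdowns with edgeR, DESeq2 or limma, while 5 of 5 passed an unadjusted p under 0.05 in each. Of all genes 17.5% passed the fold limit in QKI KD, 9.66% in RBPMS KD and 11.7% in RBFOX2 KD. Tgfb2, the isoform best known from development, stood at 135, 130 and 162 CPM in control, 129, 113 and 117 in RBPMS KD, 166, 162 and 157 in RBFOX2 KD and 44.0, 43.1 and 45.8 in QKI KD. The QKI KD libraries lay far below all 9 others, and the RBFOX2 KD libraries overlapped with control. Its log2 fold change was -1.68 ± 0.068 (SE, edgeR quasi-likelihood test, adjusted p = 5.4e-13) in QKI KD, -0.25 ± 0.066 (adjusted p = 0.00326) in RBPMS KD and 0.19 ± 0.065 (adjusted p = 0.021) in RBFOX2 KD. The pass in RBFOX2 KD was lost without control 1, control 2, RBFOX2 KD 1 or RBFOX2 KD 2 (adjusted p = 0.102, 0.132, 0.0923 and 0.0738).

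Inhbb encodes the beta B subunit of activins and inhibins. It was counted at 28.6, 28.2 and 27.0 CPM in control, 27.7, 24.6 and 24.2 in RBPMS KD, 24.1, 22.3 and 25.2 in RBFOX2 KD and 7.25, 7.36 and 7.49 in QKI KD. Again the QKI KD libraries were low and close to each other, while the RBPMS KD libraries overlapped with control. The change in QKI KD was -1.92 ± 0.060 (adjusted p = 1.88e-14). Inhba, which encodes the beta A subunit, fell less in QKI KD, from 282 ± 22.2 to 167 ± 4.58 CPM (SD, n = 3; log2 fold change -0.75, adjusted p = 8.85e-10). Tgfb1, the isoform most studied in vascular fibrosis, had smaller differences, with means of 234 ± 3.25 CPM in control, 183 ± 2.88 in RBPMS KD, 272 ± 10.1 in RBFOX2 KD and 208 ± 3.96 in QKI KD. Tgfb3 was at 199 ± 5.71, 128 ± 0.927, 267 ± 9.07 and 120 ± 6.70 CPM in the same order, and its QKI KD and RBPMS KD libraries overlapped. Compared directly, Tgfb3 was higher in RBFOX2 KD than in RBPMS KD by 1.06 ± 0.041 on the log2 scale (adjusted p = 1.2e-12).

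Of the 7 BMP and GDF ligands, 6 passed the fold limit in QKI KD, 2 higher and 4 lower, beside 3 in RBPMS KD and 1 in RBFOX2 KD, where 17.5%, 9.66% and 11.7% of all genes passed. Bmp2 and Bmp4, ligands of the same branch, moved in opposite directions in QKI KD. Bmp2 measured 9.21, 10.7 and 7.72 CPM in control, 19.9, 20.5 and 23.8 in RBPMS KD, 6.98, 6.97 and 6.60 in RBFOX2 KD and 35.8, 37.2 and 41.4 in QKI KD. The 4 groups did not overlap, with QKI KD highest and RBFOX2 KD lowest. Its log2 fold change was 1.21 ± 0.094 in RBPMS KD (adjusted p = 6.51e-09), -0.43 ± 0.099 in RBFOX2 KD (adjusted p = 0.00118) and 2.05 ± 0.094 in QKI KD (adjusted p = 2.92e-12). Directly, Bmp2 was higher in QKI KD than in RBPMS KD by 0.84 ± 0.089 (adjusted p = 3.1e-07).

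Bmp4 gave 70.2, 67.7 and 70.0 CPM in control, 45.6, 49.8 and 49.6 in RBPMS KD, 37.2, 36.9 and 35.4 in RBFOX2 KD and 25.1, 25.5 and 24.9 in QKI KD. No group overlapped with another, and control was highest. The log2 fold changes were -0.52 ± 0.040 in RBPMS KD, -0.92 ± 0.040 in RBFOX2 KD and -1.46 ± 0.041 in QKI KD (adjusted p = 5.17e-09, 2.7e-12 and 4.46e-15), and each direct comparison between knockdowns passed as well, with a largest adjusted p of 1.99e-07. Bmp6, a ligand known in iron homeostasis, differed little, at 9.83 ± 0.624 CPM in control, 9.09 ± 0.0446 in RBPMS KD, 7.60 ± 0.449 in RBFOX2 KD and 11.3 ± 0.342 in QKI KD.

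Gdf6, a BMP-like ligand of joint and skeletal patterning, was low in 2 knockdowns. Its libraries read 4.22, 3.18 and 7.07 CPM in control, 1.96, 1.23 and 1.42 in RBPMS KD, 4.86, 5.71 and 4.10 in RBFOX2 KD and 1.91, 1.49 and 1.51 in QKI KD. RBPMS KD and QKI KD lay below control without overlap, and RBFOX2 KD lay within the control range, which was wide because control 3 was high. The log2 fold change was -1.66 ± 0.24 (adjusted p = 1.39e-05) in RBPMS KD and -1.55 ± 0.24 (adjusted p = 1.77e-05) in QKI KD, and without control 3 it was -1.28 and -1.17. The difference between RBPMS KD and QKI KD for Gdf6 was 0.11 ± 0.26, which was not past the test (adjusted p = 0.75).

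The other BMP ligands past the fold limit had few counts, and their raw counts are given. Bmp3, known as an antagonist of osteogenic BMP signalling, had 114, 121 and 148 counts in control, 78, 114 and 92 in RBPMS KD, 214, 189 and 182 in RBFOX2 KD and 57, 24 and 38 in QKI KD, so QKI KD was lowest without overlap. Gdf10, a ligand related to Bmp3, had 24, 22 and 20 counts in control, 2, 2 and 0 in RBPMS KD, 6, 6 and 16 in RBFOX2 KD and 2, 0 and 2 in QKI KD. Gdf10 passed the low-count filter only through its control libraries, so its passes against control are no separate support for these falls. Since RBPMS KD and QKI KD were at or under 3 counts in every library, the ratio of pooled counts is given, and the control level was 14.2 times that of RBPMS KD (exact 95% interval 5.30 to 53.8) and 15.3 times that of QKI KD (5.69 to 57.7). These intervals, and those for the other low genes below, cover counting error only and take each count as a separate fragment. Of counts from 1 to 19, 68.1% were even, and every Gdf10 count was, so the intervals may be too narrow. The Gdf10 change in RBFOX2 KD, a log2 fold change of -1.26 ± 0.51 (adjusted p = 0.0443), was lost in 11 of 16 alternatives. Among them were leaving out any of the control libraries, RBFOX2 KD 1 or RBFOX2 KD 2.

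Bmp7, an anti-fibrotic ligand of kidney and other epithelia, had 15, 16 and 16 counts in control, 6, 2 and 12 in RBPMS KD, 10, 12 and 14 in RBFOX2 KD and 30, 52 and 26 in QKI KD. The QKI KD libraries were highest, with a ratio of pooled counts to control of 2.48 (1.75 to 3.58). The edgeR call for Bmp7 (log2 fold change 1.32, adjusted p = 0.0158) rested on QKI KD 2, since without it the value was 0.88 (adjusted p = 0.135), and without control 2 the adjusted p was 0.0515. The plot of raw counts shows these low genes by library.

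**Figure D2:**
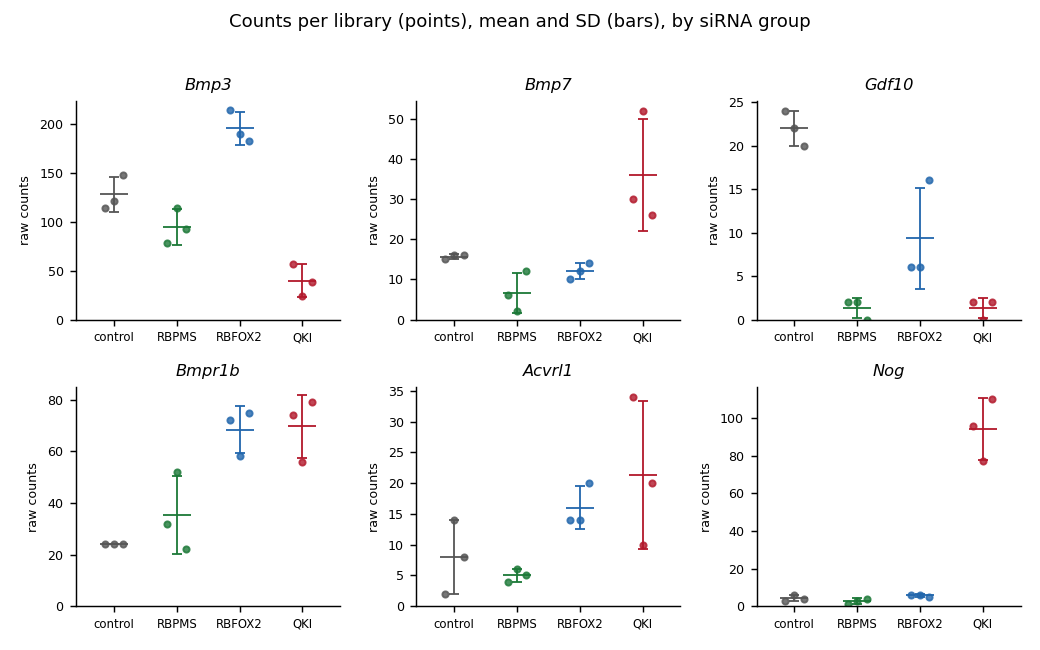
Raw counts per library (points) of the 6 pathway genes past the fold limit with a mean under 1 CPM, by siRNA group (control, RBPMS, RBFOX2 and QKI knockdown, 3 libraries each); long bars are means and short bars 1 SD either side. Nog lies between 77 and 110 counts in QKI KD and at 6 or fewer in all other libraries, Gdf10 is at 2 or fewer in RBPMS and QKI KD, and the Acvrl1 libraries of control and QKI KD overlap.

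The latent TGF-beta binding proteins, some of which anchor the latent complex to fibrillin-rich matrix, moved in different directions from each other and between knockdowns. All 6 genes of the latency, processing and matrix group passed an adjusted p under 0.05 in RBPMS KD (2 higher, 4 lower), and 5 did in each of RBFOX2 KD (2 higher, 3 lower) and QKI KD (3 higher, 2 lower), where 59.4%, 60.3% and 66.9% of all genes passed. The fold limit was passed by 3, 4 and 2 of them, against 9.66%, 11.7% and 17.5% of all genes. Ltbp1 had 81.9, 83.3 and 92.6 CPM in control, 228, 210 and 223 in RBPMS KD, 305, 302 and 309 in RBFOX2 KD and 81.8, 82.7 and 83.1 in QKI KD. RBPMS KD and RBFOX2 KD stood well above control, and the QKI KD libraries overlapped with control. Its log2 fold change was 1.36 ± 0.044 in RBPMS KD (adjusted p = 1.11e-13) and 1.83 ± 0.044 in RBFOX2 KD (adjusted p = 1.38e-15), while in QKI KD it was -0.06 ± 0.043 (adjusted p = 0.25). RBFOX2 KD exceeded RBPMS KD by 0.47 ± 0.043 (adjusted p = 6.73e-08).

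Ltbp2 fell in each comparison. Its levels were 576, 630 and 590 CPM in control, 383, 321 and 394 in RBPMS KD, 247, 253 and 262 in RBFOX2 KD and 144, 148 and 154 in QKI KD, in 4 ranges that did not overlap. The log2 fold change was -0.71 ± 0.060 in RBPMS KD (adjusted p = 1.79e-08), -1.24 ± 0.060 in RBFOX2 KD (adjusted p = 1.34e-11) and -2.01 ± 0.062 in QKI KD (adjusted p = 1.55e-14). The step from RBFOX2 KD to QKI KD was -0.77 ± 0.060 (adjusted p = 3.99e-09).

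Ltbp4, a family member needed for elastic fibre assembly, showed opposite changes. It was found at 103, 104 and 120 CPM in control, 47.8, 41.5 and 46.7 in RBPMS KD, 45.7, 49.0 and 42.3 in RBFOX2 KD and 141, 159 and 142 in QKI KD. RBPMS KD and RBFOX2 KD overlapped with each other below control, and QKI KD lay above all 9 other libraries. The log2 fold changes of -1.27 ± 0.070 in RBPMS KD and -1.26 ± 0.070 in RBFOX2 KD (adjusted p = 9.24e-11 and 7.4e-11) stood beside 0.43 ± 0.068 in QKI KD (adjusted p = 2.41e-05). Ltbp4 differed between RBFOX2 KD and RBPMS KD by 0.01 ± 0.070, which did not pass the test (adjusted p = 0.898). Ltbp3 fell by less, from 202 ± 11.7 CPM in control to 134 ± 9.23 in RBPMS KD, 179 ± 3.49 in RBFOX2 KD and 134 ± 2.37 in QKI KD. Counting rules for reads shared by close paralogues are not given, so the split between Ltbp genes is uncertain to that extent.

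Tgfbi, a secreted matrix protein named for its induction by TGF-beta, rose in each comparison. Its libraries held 4.38, 5.29 and 5.74 CPM in control, 13.8, 14.6 and 13.9 in RBPMS KD, 20.0, 22.9 and 22.2 in RBFOX2 KD and 12.5, 12.3 and 13.3 in QKI KD. Control was lowest and RBFOX2 KD highest, with no overlap between groups. The log2 fold change was 1.45 ± 0.080 in RBPMS KD, 2.08 ± 0.079 in RBFOX2 KD and 1.30 ± 0.080 in QKI KD (adjusted p = 8.46e-11, 5.43e-13 and 1.59e-10), and RBPMS KD and QKI KD differed by -0.15 ± 0.075 (adjusted p = 0.0874), which did not pass. Bmp1, the protease that processes procollagens and releases BMP from chordin, fell in RBPMS KD from 128 ± 6.54 to 92.2 ± 2.59 CPM (adjusted p = 4.58e-08) and was at 136 ± 4.40 CPM in RBFOX2 KD and 143 ± 6.35 CPM in QKI KD. The strip plots show the libraries of these genes beside the other 11 with at least 1 CPM.

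**Figure D3:**
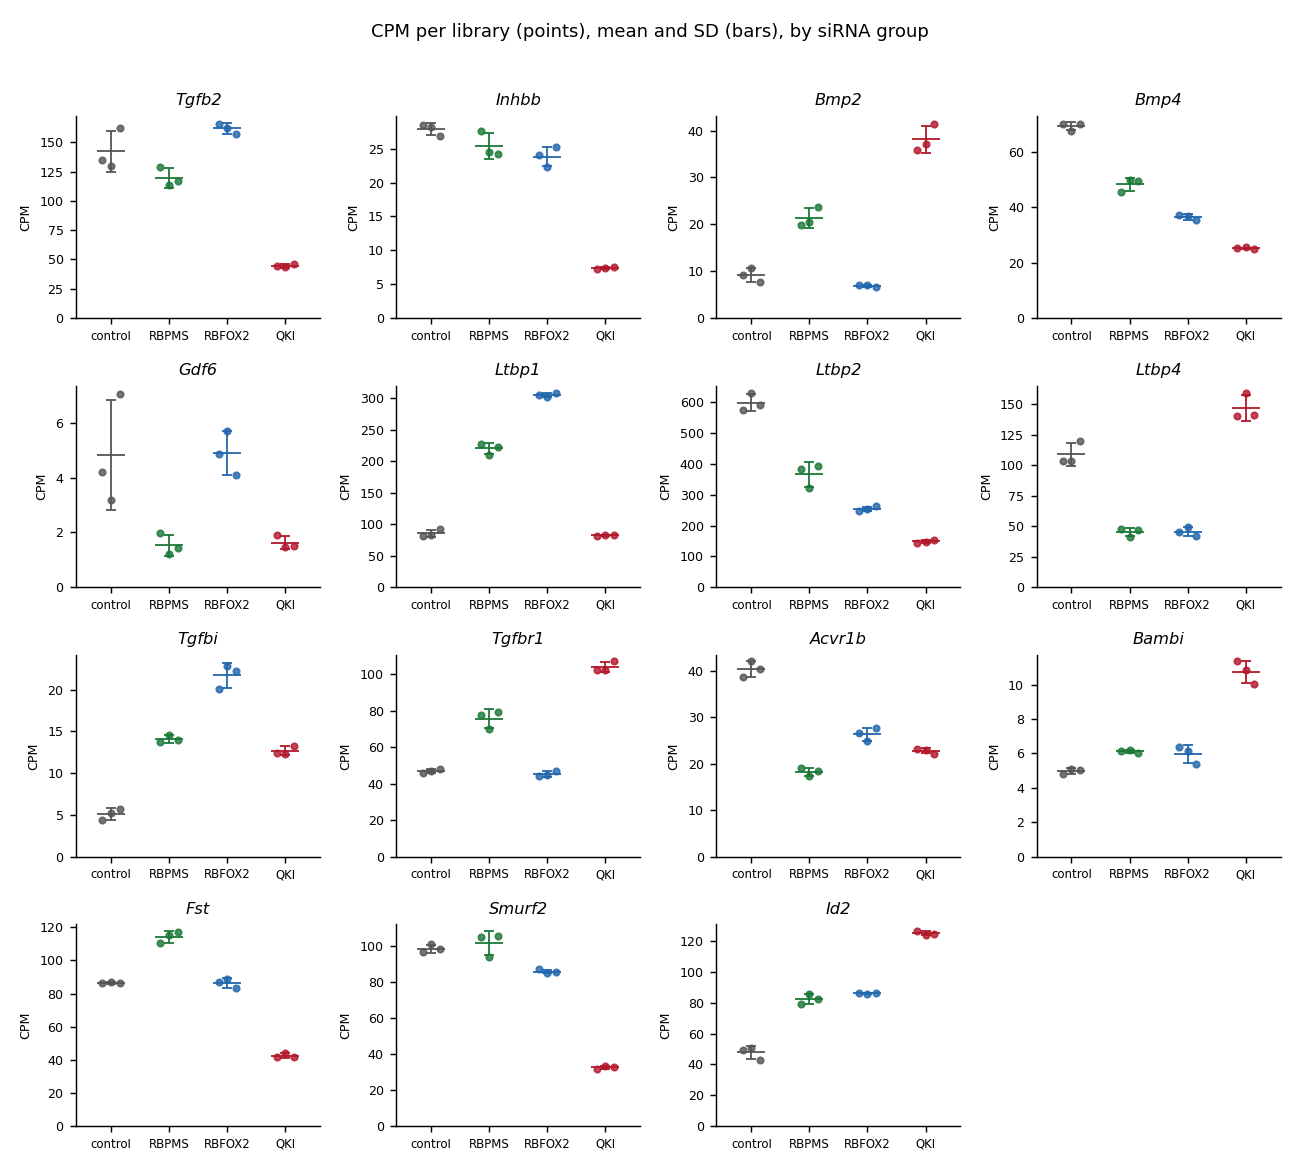
CPM per library (points) of the 15 pathway genes past the fold limit in at least 1 knockdown with a mean of at least 1 CPM; groups are control, RBPMS, RBFOX2 and QKI knockdown with 3 libraries each, long bars are means and short bars 1 SD either side. Ltbp1 is at 210 CPM or more in RBPMS and RBFOX2 KD and at 92.6 or less elsewhere, Ltbp4 is highest in QKI KD, and Tgfb2, Inhbb, Fst and Smurf2 are lowest in QKI KD.

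Among the 13 receptors and co-receptors, 11 passed an adjusted p under 0.05 in RBPMS KD (5 higher, 6 lower), 10 in RBFOX2 KD (5 higher, 5 lower) and 13 in QKI KD (6 higher, 7 lower), where 59.4%, 60.3% and 66.9% of all genes passed. Both signalling receptors of TGF-beta itself rose in QKI KD. Tgfbr1, the type I receptor, was at 45.7, 47.0 and 48.1 CPM in control, 77.8, 70.0 and 79.3 in RBPMS KD, 44.0, 44.9 and 46.8 in RBFOX2 KD and 102, 102 and 107 in QKI KD. QKI KD and RBPMS KD were above control without overlap, and RBFOX2 KD overlapped with it. The log2 fold change was 0.69 ± 0.046 in RBPMS KD (adjusted p = 8.63e-10) and 1.15 ± 0.046 in QKI KD (adjusted p = 4.38e-13). Tgfbr2, the type II receptor, rose from 114 ± 5.44 CPM to 167 ± 7.14 in RBPMS KD, 220 ± 5.24 in RBFOX2 KD and 174 ± 2.26 in QKI KD. The RBFOX2 KD value, a log2 fold change of 0.95 ± 0.040 (adjusted p = 1.92e-12), sat just under the fold limit and was 1.01 with library totals alone as the scale.

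Acvr1b, an activin type I receptor, was lower in each knockdown. Its values were 38.7, 42.2 and 40.4 CPM in control, 19.0, 17.4 and 18.4 in RBPMS KD, 26.5, 24.9 and 27.6 in RBFOX2 KD and 23.3, 22.9 and 22.2 in QKI KD. Control was highest and RBPMS KD lowest, with no overlap. The log2 fold changes were -1.15 ± 0.050 in RBPMS KD (adjusted p = 4.23e-12), -0.62 ± 0.048 in RBFOX2 KD (adjusted p = 6.4e-09) and -0.83 ± 0.049 in QKI KD (adjusted p = 9.2e-11). Bambi, a pseudoreceptor that lacks a kinase domain and dampens TGF-beta and BMP signalling, gave 4.79, 5.10 and 5.05 CPM in control, 6.15, 6.19 and 6.02 in RBPMS KD, 6.38, 6.15 and 5.38 in RBFOX2 KD and 11.3, 10.8 and 10.1 in QKI KD. QKI KD stood apart, and RBPMS KD and RBFOX2 KD overlapped with each other just above control. Its change in QKI KD was 1.11 ± 0.071 (adjusted p = 2.68e-10).

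Of the receptors under the fold limit, taken by control CPM, Eng (endoglin, a co-receptor) fell from 361 ± 7.90 CPM to 241 ± 8.84 in RBPMS KD, 277 ± 3.63 in RBFOX2 KD and 276 ± 1.32 in QKI KD. Bmpr2, the BMP type II receptor, ranged narrowly between means of 112 and 129 CPM, and Bmpr1a, a BMP type I receptor, was at 98.0 ± 3.11 CPM in control, 69.2 ± 5.13 in RBPMS KD, 72.5 ± 1.33 in RBFOX2 KD and 90.3 ± 2.11 in QKI KD. The 4 remaining receptors above 1 CPM (Tgfbr3, Acvr1, Acvr2a and Acvr2b) passed no fold limit against control, and their log2 fold changes lay between -0.89 (Tgfbr3 in QKI KD) and 0.53 (Acvr2a in RBPMS KD). Acvr2b was higher in QKI KD than in RBPMS KD by 1.12 ± 0.088 (adjusted p = 5.72e-09).

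Bmpr1b and Acvrl1 were near the limit of counting. Bmpr1b, a BMP type I receptor of cartilage and ovary, had 24 counts in each control library, 32, 52 and 22 in RBPMS KD, 72, 58 and 75 in RBFOX2 KD and 74, 56 and 79 in QKI KD, and rose in RBFOX2 KD (log2 fold change 1.48 ± 0.26, adjusted p = 0.000118) and in QKI KD (1.64 ± 0.26, adjusted p = 3.15e-05). Acvrl1, a receptor typical of endothelium, had 2, 14 and 8 counts in control, 4, 6 and 5 in RBPMS KD, 14, 14 and 20 in RBFOX2 KD and 34, 10 and 20 in QKI KD. The control and QKI KD libraries overlapped, and the Acvrl1 call in QKI KD (adjusted p = 0.0154, ratio of pooled counts 2.88, 1.78 to 4.82) was lost without QKI KD 1 (log2 fold change 1.10, adjusted p = 0.114) and without control 1 (1.10, adjusted p = 0.0719). Of the 7 endothelial markers 5 were tested, and in QKI KD 3 were higher and 1 was lower at an adjusted p under 0.05 (median log2 fold change 0.66). Of all genes 32.9% were higher and 34% lower there by that rule. The lower marker was Cdh5, at 6.77 CPM in control and 2.98 CPM with the QKI siRNA. Pecam1, one of the higher markers, was at 0.362 CPM or less in every library. The part of these markers in the Acvrl1 result was not tested.

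Among the 6 secreted antagonists and follistatins 0 passed the fold limit in RBPMS KD and in RBFOX2 KD with edgeR, DESeq2 or limma, although 4 and 3 of them passed an unadjusted p under 0.05 with edgeR, and as many did after adjustment. In these knockdowns 59.4% and 60.3% of all genes passed after adjustment, and 9.66% and 11.7% passed the fold limit. In QKI KD, where 17.5% of all genes passed the fold limit, Fst was lower and Nog higher beyond it. Fst (follistatin, which binds activin) was at 86.3, 87.2 and 86.2 CPM in control, 110, 116 and 117 in RBPMS KD, 87.2, 88.9 and 83.1 in RBFOX2 KD and 41.6, 44.4 and 41.8 in QKI KD. RBPMS KD was above and QKI KD below all other libraries, and RBFOX2 KD overlapped with control. The log2 fold change was 0.40 ± 0.038 in RBPMS KD (adjusted p = 7.23e-08) and -1.02 ± 0.039 in QKI KD (adjusted p = 2.18e-13), and the latter dropped under the fold limit in 4 of 16 alternatives, with a smallest size of -0.94. Nog (noggin, which binds BMP2 and BMP4) had 3, 6 and 4 counts in control, 1, 3 and 4 in RBPMS KD, 6, 6 and 5 in RBFOX2 KD and 96, 77 and 110 in QKI KD. Nog was barely detected outside QKI KD, and its pooled counts in QKI KD were 23.5 times those of control (13.5 to 44.7, log2 fold change 4.52 ± 0.36, adjusted p = 5.52e-09). Nog passed the low-count filter only through its QKI KD libraries, so this pass is no separate support for the rise. The summed epithelial and immune markers were also higher in QKI KD, and their part in the Nog result was not tested.

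The other antagonists changed by less. Fstl1, a follistatin-like glycoprotein, was at 1140 ± 85.1 CPM in control, 922 ± 51.2 in RBPMS KD, 1076 ± 13.8 in RBFOX2 KD and 586 ± 35.5 in QKI KD, where its log2 fold change was -0.96 ± 0.053 (adjusted p = 4.04e-11). Grem1 (gremlin, a BMP antagonist) overlapped between control and each knockdown, with means of 65.3 ± 9.88, 70.9 ± 7.40, 55.0 ± 5.63 and 66.2 ± 5.98 CPM in the same order. Chrd (chordin) fell in RBPMS KD from 5.49 ± 0.372 to 3.30 ± 0.0228 CPM (adjusted p = 1.29e-07), and Fstl3 rose in QKI KD from 5.25 ± 0.276 to 7.34 ± 0.551 CPM (adjusted p = 3.68e-05).

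The receptor Smads and Smad4 held 0 genes past the fold limit in each knockdown with edgeR, DESeq2 or limma. Of all genes 9.66%, 11.7% and 17.5% passed it in RBPMS, RBFOX2 and QKI KD. In QKI KD 1 of 6 passed a p under 0.05, before and after adjustment, and the median absolute log2 fold change was 0.05, beside 0.42 over all genes. In RBPMS KD 3 passed, all lower. In RBFOX2 KD 5 of 6 passed at either level, 1 higher and 4 lower, with a median log2 fold change of -0.31. After adjustment 59.4%, 60.3% and 66.9% of all genes passed in RBPMS, RBFOX2 and QKI KD, and 29%, 30.1% and 34% were lower. Smad5, a Smad of the BMP branch, was at 88.3, 88.0 and 89.8 CPM in control, 88.7, 84.0 and 93.5 in RBPMS KD, 56.0, 56.9 and 56.8 in RBFOX2 KD and 83.2, 87.5 and 86.9 in QKI KD. The RBFOX2 KD libraries lay far below the 9 others, and the log2 fold change there was -0.65 ± 0.039 (adjusted p = 1.89e-10). Smad2, of the TGF-beta branch, gave 73.7, 73.6 and 76.2 CPM in control and 53.1, 52.5 and 53.2 in RBFOX2 KD (log2 fold change -0.49 ± 0.031, adjusted p = 3.27e-10), with means of 74.7 CPM in RBPMS KD and 76.1 CPM in QKI KD. Smad4, the shared partner, fell from 79.4 ± 2.08 to 53.5 ± 0.725 CPM in RBFOX2 KD (adjusted p = 2.11e-09) and to 67.5 ± 2.85 CPM in QKI KD (adjusted p = 6.87e-05). Directly, Smad2, Smad4 and Smad5 were lower in RBFOX2 KD than in RBPMS KD (-0.50, -0.43 and -0.65, largest adjusted p = 1.4e-07) and lower than in QKI KD, for which the QKI minus RBFOX2 differences were 0.52, 0.33 and 0.60 (largest adjusted p = 1.29e-06). Smad3 went the other way in RBFOX2 KD, from 58.9 ± 1.15 to 68.0 ± 0.346 CPM (adjusted p = 0.000197). Smad1 and Smad9 lay between means of 36.7 and 44.9 CPM and of 16.3 and 18.8 CPM.

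Of the inhibitory Smads, ubiquitin ligases and corepressors, Smurf2 was the gene past the fold limit, and only in QKI KD among the 3 comparisons with control. In RBPMS KD and RBFOX2 KD 0 of the 6 passed it with edgeR, DESeq2 or limma, while 4 and 6 passed an unadjusted p under 0.05. After adjustment 3 and 6 passed, where 59.4% and 60.3% of all genes did. The fold limit was passed by 9.66%, 11.7% and 17.5% of all genes in RBPMS, RBFOX2 and QKI KD. Smurf2 is a ubiquitin ligase that marks Smads and, with Smad7, receptors for degradation. Its levels were 96.3, 101 and 98.0 CPM in control, 105, 93.8 and 106 in RBPMS KD, 86.9, 84.9 and 85.2 in RBFOX2 KD and 31.9, 33.4 and 33.0 in QKI KD. RBPMS KD overlapped with control, RBFOX2 KD lay slightly below it and QKI KD far below, at a log2 fold change of -1.59 ± 0.044 (adjusted p = 3.75e-15). Its relative Smurf1, at 106 ± 3.68 CPM in control, was at 101 ± 2.62 CPM in QKI KD and fell in RBPMS KD to 83.4 ± 4.64 CPM (adjusted p = 1.33e-06).

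Smad7, an inhibitory Smad and itself a target of the pathway, was at 83.7, 89.7 and 81.8 CPM in control, 95.7, 86.3 and 103 in RBPMS KD, 146, 143 and 150 in RBFOX2 KD and 70.8, 71.1 and 69.7 in QKI KD. RBFOX2 KD was above and QKI KD below control. The log2 fold change was 0.78 ± 0.051 in RBFOX2 KD (adjusted p = 6.27e-10) and -0.27 ± 0.051 in QKI KD (adjusted p = 0.000177), and the direct difference between QKI KD and RBFOX2 KD was -1.05 ± 0.052 (adjusted p = 8.04e-12). The corepressor Ski rose in RBFOX2 KD from 123 ± 6.39 to 182 ± 1.35 CPM (adjusted p = 3.75e-09), whereas its relative Skil fell there from 149 ± 3.87 to 120 ± 1.89 CPM (adjusted p = 2.97e-05). Smad6, an inhibitory Smad of the BMP branch, had means between 57.5 and 70.9 CPM.

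The 4 Id genes are dominant negative partners of helix-loop-helix factors. In QKI KD 2 were higher and 2 lower at an adjusted p under 0.05, beside 32.9% and 34% of all genes. The fold limit was passed by 1 in QKI KD and by 0 in RBPMS KD and RBFOX2 KD with edgeR, DESeq2 or limma. Of all genes 17.5%, 9.66% and 11.7% passed it in these knockdowns. In RBPMS KD and RBFOX2 KD 3 and 2 Id genes passed an unadjusted p under 0.05. As many passed after adjustment, where 59.4% and 60.3% of all genes did in RBPMS KD and RBFOX2 KD. Id2 had 49.5, 50.7 and 43.2 CPM in control, 79.0, 85.6 and 82.6 in RBPMS KD, 86.3, 85.9 and 86.4 in RBFOX2 KD and 127, 124 and 124 in QKI KD. Control was lowest and QKI KD highest, and no groups overlapped. RBPMS KD and RBFOX2 KD lay close together, at a difference of 0.06 ± 0.048 (adjusted p = 0.271). Its log2 fold change was 0.79 ± 0.049 in RBPMS KD, 0.85 ± 0.049 in RBFOX2 KD and 1.39 ± 0.049 in QKI KD (adjusted p = 4.07e-10, 1.12e-10 and 9.76e-14). Id1 rose by less, from 102 ± 4.23 CPM to 134 ± 6.25, 145 ± 2.13 and 124 ± 6.04 CPM in the same order, with log2 fold changes between 0.27 and 0.50. In QKI KD Id3 and Id4 fell, from 408 ± 7.42 to 320 ± 16.1 CPM (adjusted p = 4.15e-06) and from 104 ± 1.99 to 63.6 ± 2.54 CPM (adjusted p = 2.96e-10).

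Compared directly, 5 of the 53 genes passed the fold limit between RBFOX2 KD and RBPMS KD (9.43%, 4 higher and 1 lower in RBFOX2 KD), against 7.52% of all genes, 4.41% higher and 3.1% lower. This count depends on low genes, and it became 3 (2 higher, 1 lower) on the normalised table and 3 without RBPMS KD 3 or without RBFOX2 KD 3. Of the 5, Tgfb3, Bmp2 and Gdf6 were above 1 CPM and Gdf10 and Acvrl1 below it. Between QKI KD and RBPMS KD 12 passed (22.6%, 5 higher and 7 lower in QKI KD), against 12.2% of all genes (5.66% higher, 6.53% lower), and with library totals alone 7 were higher and 7 lower. Between QKI KD and RBFOX2 KD 16 passed (30.2%, 6 higher and 10 lower in QKI KD), against 18.4% of all genes, 7.74% higher and 10.6% lower. Among the latency genes Ltbp1 and Ltbp4 passed the fold limit in both pairs with QKI KD. Ltbp1 was at -1.42 ± 0.044 in QKI KD against RBPMS KD (adjusted p = 2.74e-14) and -1.89 ± 0.044 against RBFOX2 KD (adjusted p = 5.88e-16). Ltbp4 was at 1.70 ± 0.071 (adjusted p = 1.44e-12) and 1.69 ± 0.070 (adjusted p = 9.25e-13) in the same order.

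A further 77 genes of these pathways, listed by role and not members of the set above, were read from the same fit, and 62 of them were tested. The fold limit was passed by 6 in RBPMS KD (4 higher, 2 lower), 10 in RBFOX2 KD (7 higher, 3 lower) and 11 in QKI KD (5 higher, 6 lower), which is 9.68%, 16.1% and 17.7% of those tested beside the background shares of 9.66%, 11.7% and 17.5%. Their median log2 fold changes were -0.01, 0.02 and 0.06. These shares are close to the background.

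In the latency and activation list, Itgb8, the integrin subunit that with alpha V releases TGF-beta from its latent complex, had 40.2, 41.9 and 46.3 CPM in control, 13.7, 10.4 and 11.5 in RBPMS KD, 28.5, 26.0 and 28.4 in RBFOX2 KD and 3.04, 3.90 and 3.02 in QKI KD. Its groups did not overlap and control was highest, with log2 fold changes of -1.86 ± 0.091 in RBPMS KD and -3.70 ± 0.10 in QKI KD (adjusted p = 2.05e-11 and 4.71e-15). Thbs1 (thrombospondin 1), another activator of latent TGF-beta, rose from 778 ± 63.6 CPM to 1968 ± 166 in RBPMS KD and 1839 ± 40.4 in RBFOX2 KD (log2 fold change 1.34 and 1.24, adjusted p = 5.37e-12 and 9.56e-12). Tll1, a protease of the Bmp1 family, rose in QKI KD from 2.82 ± 0.0678 to 16.3 ± 1.19 CPM (adjusted p = 3.62e-14). Its relative Tll2 rose in RBFOX2 KD from 0.0479 ± 0.0400 to 0.263 ± 0.0998 CPM (adjusted p = 0.00276). The control libraries of Tll2 were too low as a group to pass the low-count filter, so this pass is no separate support for the rise.

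Of the other receptors and co-receptors, Hjv (hemojuvelin, a BMP co-receptor) rose from 0.309 ± 0.0354 CPM in control to 1.18 ± 0.134 in RBPMS KD, 1.41 ± 0.0577 in RBFOX2 KD and 2.56 ± 0.204 in QKI KD. Vasn (vasorin, which binds TGF-beta) rose in RBPMS KD from 62.0 ± 1.57 to 140 ± 2.26 CPM, and Rgma, a BMP co-receptor related to Hjv, fell in QKI KD from 21.5 ± 1.25 to 5.89 ± 0.581 CPM. Among the antagonists Crim1, a transmembrane protein that binds BMPs, fell in QKI KD from 273 ± 16.7 to 36.4 ± 1.07 CPM (log2 fold change -2.91 ± 0.057, adjusted p = 6.2e-17). In RBPMS KD 0 of the 6 tested antagonists of this list passed the fold limit with edgeR, DESeq2 or limma, while 5 passed a p under 0.05 with edgeR before and after adjustment. After adjustment 59.4% of all genes passed there, and 9.66% passed the fold limit. In RBFOX2 KD Chrdl2, a chordin-like antagonist, rose from 0.546 ± 0.0606 to 1.80 ± 0.192 CPM and Bmper fell from 24.9 ± 1.12 to 11.3 ± 0.210 CPM.

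Of the other ligands 9 of 19 listed were tested, and those past the fold limit were under 1 CPM except Inha. Inhbe rose from 0.112 ± 0.0252 CPM to 0.477 ± 0.135 in RBPMS KD and 0.459 ± 0.0877 in QKI KD. Inha (the inhibin alpha subunit) fell in RBPMS KD from 4.39 ± 0.0860 to 2.10 ± 0.0180 CPM. Lefty1, an antagonist of nodal, rose from 0.0853 ± 0.0246 CPM to 0.260 ± 0.0725 in RBFOX2 KD and 0.254 ± 0.0918 in QKI KD. Gdf5 rose from 0.0257 ± 0.0202 CPM to 0.0748 ± 0.0158 in RBFOX2 KD (adjusted p = 0.0454) and 0.102 ± 0.0262 in QKI KD, on at most 15 counts per library. The control libraries of Gdf5 were too low as a group to pass the low-count filter, so its passes are no separate support for the rise. Of the 27 intracellular genes 0, 1 and 2 passed the fold limit in RBPMS, RBFOX2 and QKI KD. These are 0%, 3.7% and 7.41% of the list, against 9.66%, 11.7% and 17.5% of all genes. The 0 in RBPMS KD held with edgeR, DESeq2 and limma, and 17 of the 27 passed a p under 0.05 with edgeR before and after adjustment. Of all genes 59.4% passed there after adjustment. Fkbp1a, the immunophilin that holds type I receptors inactive, fell in RBFOX2 KD from 426 ± 1.89 to 178 ± 4.17 CPM (log2 fold change -1.26 ± 0.035, adjusted p = 8.82e-15). Zfyve9, the anchor that brings Smads to receptors, fell in QKI KD from 40.9 ± 1.34 to 16.5 ± 0.110 CPM, and Traf6, a ubiquitin ligase of the Smad-independent branch, fell there from 32.1 ± 0.215 to 15.6 ± 0.176 CPM.

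Genes known to respond to TGF-beta did not move in a single direction. Of 23 tested, 4 passed the fold limit in RBPMS KD (3 higher, 1 lower), 3 in RBFOX2 KD (2 higher, 1 lower) and 7 in QKI KD (1 higher, 6 lower), which is 17.4%, 13% and 30.4% of the list beside 9.66%, 11.7% and 17.5% of all genes. The RBFOX2 KD share lay near the background. The median log2 fold changes were 0.07, 0.10 and -0.04. Col1a2, a chain of type I collagen, rose from 4185 ± 321 CPM to 9297 ± 685 in RBPMS KD and 9557 ± 249 in RBFOX2 KD and fell to 2803 ± 236 in QKI KD.

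Lox, which crosslinks collagen and elastin, rose in RBPMS KD from 127 ± 13.8 to 320 ± 31.5 CPM (adjusted p = 3.88e-11). Eln (elastin) fell in QKI KD from 762 ± 242 to 135 ± 9.49 CPM, and its control spread came from control 3 at 1038 CPM beside 665 and 583 CPM. Hmga2, a chromatin factor of the mesenchymal response, fell in QKI KD from 345 ± 17.5 to 42.4 ± 1.06 CPM (log2 fold change -3.02 ± 0.045, adjusted p = 2.02e-18) and in RBFOX2 KD to 160 ± 5.79 CPM (-1.11 ± 0.042, adjusted p = 4.385e-13).

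Of 10 listed BMP response genes 7 were tested, and 0, 1 and 2 passed the fold limit, where 9.66%, 11.7% and 17.5% of all genes did. In RBPMS KD, where the count was 0 with edgeR, DESeq2 and limma, edgeR put 6 of the 7 past a p under 0.05 before and after adjustment. It put 59.4% of all genes past that level after adjustment. Hey2, a transcriptional repressor also driven by Notch, had 72.5, 63.6 and 83.3 CPM in control, 41.4, 39.1 and 37.4 in RBPMS KD, 28.5, 26.9 and 27.8 in RBFOX2 KD and 16.7, 18.1 and 14.9 in QKI KD, in 4 ranges that did not overlap. Its log2 fold change was -1.40 ± 0.080 in RBFOX2 KD and -2.15 ± 0.083 in QKI KD (adjusted p = 1e-10 and 3.02e-13). Gata2 rose in QKI KD from 1.08 ± 0.173 to 2.19 ± 0.197 CPM (adjusted p = 1.72e-06). The map of response genes sets these beside the Id genes.

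**Figure D4:**
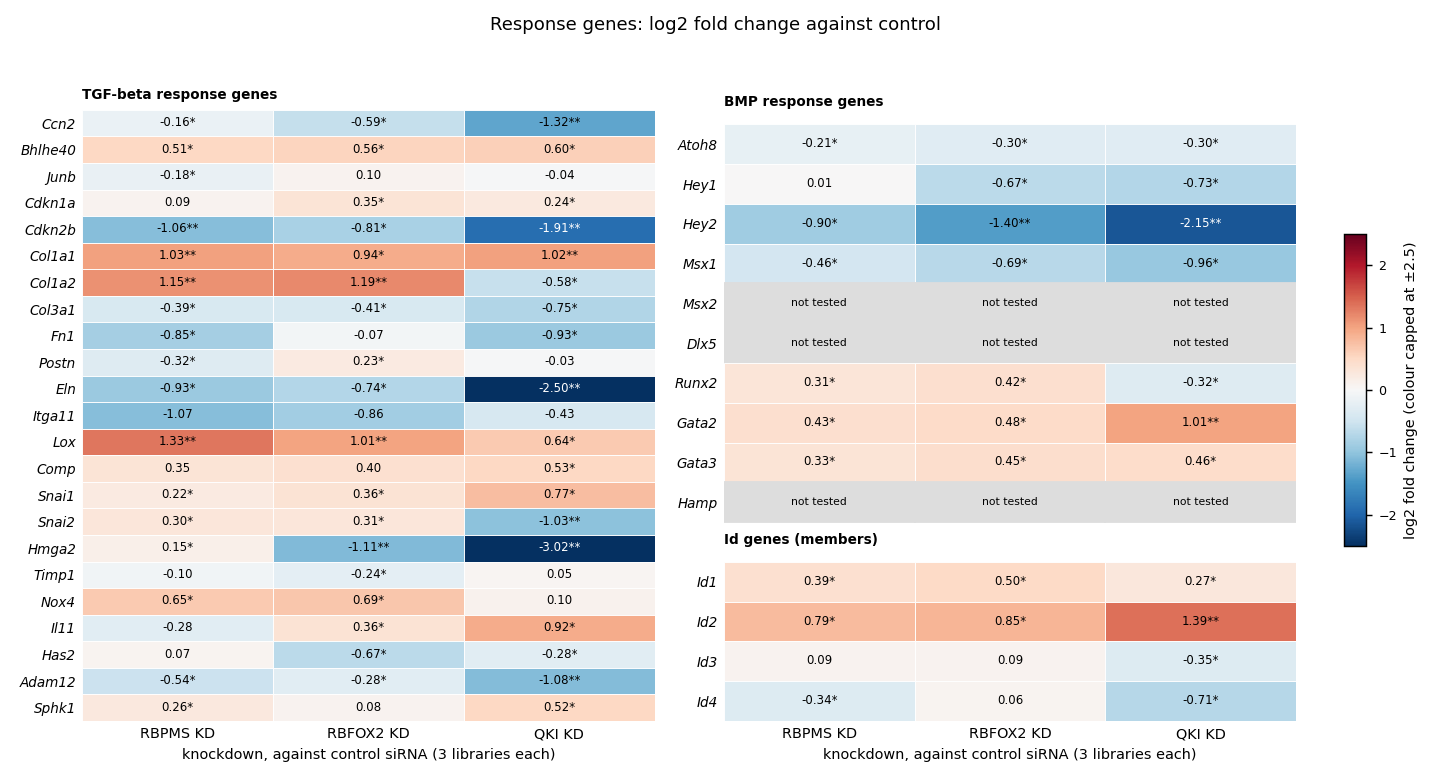
Log2 fold change against control siRNA of 23 TGF-beta response genes (left), 10 BMP response genes and the 4 Id genes (right) in RBPMS, RBFOX2 and QKI knockdown (KD, columns). Colour gives the log2 fold change, capped at 2.5 in either direction; 1 star marks an adjusted p under 0.05, 2 stars also an absolute log2 fold change above 1, and grey marks 3 genes that were not tested. Hmga2 is -1.11 in RBFOX2 KD and -3.02 in QKI KD, and Hey2 is negative in each column while Id2 is positive in each.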

How the data were processed

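RNA of PAC1 cells was made into 12 libraries, poly(A)-selected and sequenced as paired ends, and each title gave a library its group and number. The authors deposited raw counts per gene for 33294 symbols and a normalised signal for 22320, which the authors made by noise filtering and quantile normalisation and which has a minimum of 5. The submitters' processing notes name FastQC 0.11.2, MultiQC 1.8, STAR 2.5.2a, edgeR 3.28.1, DESeq2 1.30.0 and the build mRatBN7.2, and the study's methods name featureCounts. How shared reads, overlapping genes and strand were treated is not given in the sources used here. Of counts from 1 to 19, 68.1% were even, against 50.9% above 1000, so a fit on halved counts was among the alternatives.

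The quasi-likelihood test of edgeR 4.0.16 (R 4.3.3) was applied to the counts (TMM scaling, filterByExpr, glmQLFit and glmQLFTest, two-sided) in 1 fit over all 12 libraries with 1 coefficient per group, and p-values were Benjamini-Hochberg adjusted over 18438 genes. The fold limit was an absolute log2 fold change above 1, and the SE was its size divided by the square root of F. With 3 libraries against 3, an exact permutation test cannot give a p below 0.1. Alternatives were other scalings and filters, DESeq2 1.42.0, limma 3.58.1 on log2 of the normalised signal with a pseudocount of 1 or none, halved counts, a replicate block, the 6 libraries of a comparison alone and each library left out. The fit was tested on simulated data. Within groups, chi-square per degree of freedom of library pairs was 4.64 to 57.8, so no libraries were duplicates.

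The pathway genes and all lists were chosen with earlier results of these data known. All values per library are given for genes past the fold limit against control in at least 1 knockdown with a mean of at least 1 CPM, raw counts for those below, and up to 4 others per role by control CPM. From the other lists, up to 2 genes per list and knockdown past the fold limit with the largest change are named. siRNA sequences came from the study's reagent list and promoters from RefSeq (GRCr8), whose coordinates do not apply to the build of the counts. Splicing was not analysed here, and some listed genes are not reported here.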

Additional observations from a re-analysis of the deposited data

Results flagged for a closer look

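Each of these genes passed the test against control in opposite directions in 2 knockdowns, with at least 1 of them past the fold limit, and the difference between those knockdowns was itself past the fold limit by edgeR. Tgfb2 was lower in QKI KD than in RBFOX2 KD by a log2 difference of -1.87 ± 0.068 (SE, adjusted p = 1.58e-13). Bmp2 was lower in RBFOX2 KD than in RBPMS KD, at -1.64 ± 0.096 (adjusted p = 3.23e-10), and higher in QKI KD than in RBFOX2 KD, at 2.48 ± 0.096 (adjusted p = 3.64e-13). Bmp3 was lower in QKI KD than in RBFOX2 KD, at -2.17 ± 0.20 (adjusted p = 4.34e-08), on at most 214 counts per library. The passes against control in RBFOX2 KD of Tgfb2 and Bmp3 were the weaker ones. That of Tgfb2 was lost without control 1, control 2, RBFOX2 KD 1 or RBFOX2 KD 2 (adjusted p from 0.0738 to 0.132), and that of Bmp3 on the normalised signal (adjusted p = 0.0519 and 0.0537) and without control 2 (adjusted p = 0.0517). Ltbp4 was higher in QKI KD than in RBPMS KD by 1.70 ± 0.071 (adjusted p = 1.44e-12) and than in RBFOX2 KD by 1.69 ± 0.070 (adjusted p = 9.25e-13). Fst was lower in QKI KD than in RBPMS KD, at -1.42 ± 0.039 (adjusted p = 5.64e-15). In each case the higher and the lower libraries did not overlap.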

How the results depend on the processing

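Of the 31 calls past the fold limit against control, those of the 15 genes with at least 1 CPM held in 16 of 16 alternatives each, except Fst in QKI KD (lost in 4). Among the genes under 1 CPM, Gdf10 in RBFOX2 KD was lost in 11 of 16, Acvrl1 in QKI KD in 6 and Bmp7 in QKI KD in 5. The last was lost without control 2 or QKI KD 2 (adjusted p = 0.0515 and 0.135), and the 6 other calls under 1 CPM were lost in 1 or 2, where the gene was not tested. With a mean of at least 200 counts required, which leaves fewer genes, the genes past the fold limit numbered 692 in RBPMS KD, 840 in RBFOX2 KD and 1484 in QKI KD against control (1781, 2156 and 3231 otherwise), and 435, 929 and 1515 in RBFOX2 against RBPMS KD, QKI against RBPMS KD and QKI against RBFOX2 KD (1386, 2248 and 3389). Under that filter the pathway genes called in QKI KD fell from 18 to 11. The calls lost were those of Bmp3, Bmp7, Gdf10, Bmpr1b, Acvrl1 and Nog, which were not tested, and of Fst, at -0.99. The numbers of genes tested under it are not given here, so the 11 and the 1484 cannot be set side by side as shares. The pathway genes called between RBFOX2 KD and RBPMS KD numbered 3 in place of 5 under that filter, on the normalised signal with or without the pseudocount and with halved counts, and 3 to 4 with 1 library left out. Library totals alone shifted the median of all genes to 0.11 and 0.12 in RBFOX2 and QKI KD against RBPMS KD and raised the share of higher calls from 58.7% to 69% and from 46.4% to 58.6%, while the normalised signal gave 46.7% for the former.

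Some values near 0 that passed no test changed sign. Fst in RBFOX2 KD became 0.051 with library totals, 0.019 with the filter at 200 counts and 0.025 on the normalised signal with or without the pseudocount, and ranged from -0.035 to 0.017 with 1 library left out. Ltbp1 in QKI KD became 0.028 with library totals and 0.0052 on the normalised signal in both forms. With library totals Smurf2 in RBPMS KD became -7.2e-05 and Tgfbr1 in RBFOX2 KD 0.0016. With 1 library left out, Acvrl1 in RBPMS KD ranged from -0.84 to 0.15 and Gdf6 in RBFOX2 KD from -0.21 to 0.40. The cause was not tested.

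Libraries with the same replicate number did not deviate together (correlations from -0.165 to 0.14, 1 of 18 pairs over 0.1, 3 of 12 libraries closest to their own number), so the number was not used as a pairing. With it as a replicate block, 7, 5 and 18 pathway genes passed the fold limit in RBPMS, RBFOX2 and QKI KD, and 4, 12 and 16 in the direct comparisons.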

Other observations

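The siRNA targets also differed outside their own knockdown, by less than the fold limit. Rbpms was lower in RBFOX2 KD, at 23.1 ± 1.90 CPM (SD, n = 3), and in QKI KD, at 29.0 ± 0.957 CPM, than in control, at 40.7 ± 2.60 CPM (edgeR adjusted p = 2.1e-09 and 9.32e-07). Qk was at 265 ± 10.6 CPM in RBPMS KD and 174 ± 1.32 CPM in RBFOX2 KD beside 233 ± 7.04 CPM in control (adjusted p = 0.000297 and 1.7e-08). Rbfox2 was at 142 ± 8.77 CPM in RBPMS KD and 139 ± 2.35 CPM in QKI KD beside 154 ± 4.37 CPM in control (adjusted p = 0.0193 and 0.00428).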
